A study of Caenorhabditis elegans with 12 samples.

Results

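The mitochondrial genome of Caenorhabditis elegans was followed through 12 RNA sequencing libraries of whole worms. Its features were taken as every row that the deposited count table places on the mitochondrial chromosome, which gave 36 features of 46987: 12 protein-coding genes, 2 ribosomal RNA (rRNA) genes and 22 transfer RNA (tRNA) genes. Wild-type N2 Bristol worms were grown at 25 °C on agar plates with OP50 bacteria and collected whole at the L4 stage, the last larval stage. Exposure began in the embryo and lasted about 46 h, at 0, 400, 2000 or 10000 ng of AO168=O per g of agar. AO168=O is an organophosphate formed when the polymer antioxidant AO168 is oxidised. The plates of every group, the unexposed controls included, also held 0.01% ethanol, the solvent. Each group had 3 libraries from about 1000 worms each, described as independent biological replicates, and all 12 carried the same batch label. RNA was selected with oligo(dT), primed with random hexamers and sequenced as pairs of 150 bases, and the total per library ran from 36897811 to 47211800 counts.

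Animal mitochondria keep a small genome of their own, which encodes core subunits of the respiratory chain and the rRNAs and tRNAs needed to translate them inside the organelle. All other proteins of the chain, of the mitochondrial ribosome and of the machinery that copies and transcribes this genome come from the nucleus. In worms the genome is compact and is read from a single strand into long transcripts, from which the separate RNAs are cut, and mitochondrial mRNAs carry poly(A) tails. Levels below are therefore those of RNA that passed an oligo(dT) selection, and rRNA and tRNA levels are not measures of the total rRNA or tRNA of a worm. These are whole animals, so that fewer cells rich in mitochondria and less mitochondrial RNA per cell cannot be told apart.

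All 36 features lay on the plus strand, and all 36 positions matched the WBcel235 annotation. Neighbours were packed closely: of 35 gaps between successive features, 31 were at most 2 bases, with 8 overlaps among them, and the longest gap was 18 bases. The protein-coding genes were 7 of complex I, which takes electrons from NADH (ND1 to ND6 and ND4L), 3 of complex IV, cytochrome c oxidase (COX1, COX2 and COX3), cytochrome b of complex III (CYTB) and a subunit of the proton channel of ATP synthase (ATP6). Their worm names were nduo-1 to nduo-6, ndfl-4, ctc-1, ctc-3, ctb-1 and atp-6, while COX2 had no worm name in the table. The shorter rRNA feature (WBGene00014454, 696 bases, positions 898 to 1593) and the longer one (WBGene00014472, 952 bases, positions 10403 to 11354) are named here by length.

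Counts reached 14 of the 36 features. The 22 tRNA features, 52 to 62 bases long, had 0 counts in all 12 libraries. A count of 0 allows, with 3 counts as the limit, a share of up to 0.000343% to 0.00059% of the mitochondrial counts, depending on the library, and this limit covers counting error only. Nuclear tRNA features were nearly as empty, with any count in 66 of 612 and 464 counts in all, and of 869 nuclear features of 50 to 65 bases 171 had a count.

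ND4L, a small membrane subunit of complex I (235 bases), was the one protein-coding gene near 0. It had 4, 4 and 1 counts in the controls, 3, 5 and 7 at 400 ng/g, 6, 5 and 0 at 2000 ng/g and 3, 0 and 7 at 10000 ng/g. Among 244 nuclear protein-coding genes of 200 to 270 bases, 82 had more than its 45 counts in all and the median was 10. ND6, which ends on the first base of ND4L, had 591 to 1075 counts per library. How read pairs spanning 2 neighbouring features were assigned is not given in the sources used here, and its part in the ND4L count was not tested.

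The remaining 13 features, 11 protein-coding and 2 rRNA, passed the filter on low counts and differed widely in level. Levels are CPM, counts scaled to a common library size by TMM (trimmed mean of M-values, a library scaling that assumes most genes do not differ), divided by length in kilobases, with means and SD over 12 libraries. COX3 had the highest mean, 3187 ± 419, and COX2 (3012 ± 423) and COX1 (2858 ± 329) followed. This top order was loose, since COX3 exceeded COX2 in 9 of the 12 libraries and COX2 exceeded COX1 in 8. ATP6 came next at 2504 ± 265 and CYTB at 1845 ± 243, and each was above the next feature in all 12 libraries.

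The complex I genes were lower than all of these. ND1 had a level of 793 ± 103, and ND3 (668 ± 121), ND4 (649 ± 80.2) and ND5 (648 ± 57.9) could not be ordered, with ND3 above ND4 in 8 libraries and ND4 above ND5 in 5. ND2 stood at 266 ± 37.4 and ND6 at 43.4 ± 6.67. The 2 rRNA features lay near ND6, at 57.2 ± 14.0 for the shorter and 54.1 ± 33.6 for the longer. By the deposited FPKM, COX3 ranked between 6 and 46 among all features of a library and exceeded ND6 by 64.5 to 91.5 times.

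**Figure D1:**
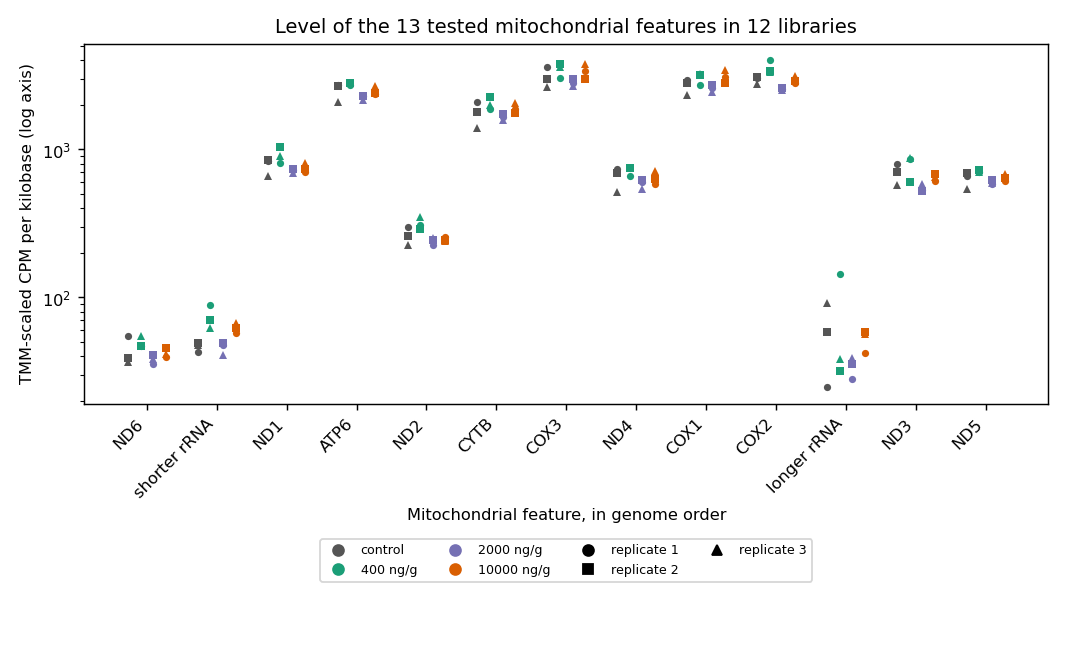
Level of the 13 tested mitochondrial features in genome order, as TMM-scaled CPM per kilobase on a log axis. Each point is 1 library, coloured by exposure group and shaped by replicate. The COX genes, ATP6 and CYTB sit above the complex I genes in every group, and the longer rRNA has the widest scatter, from 24.8 to 143.7.

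Against 43 tested nuclear genes of the respiratory chain, on the same scale, no nuclear gene had a mean above that of CYTB. The highest were atp-2 (1804 ± 255) and atp-1 (1572 ± 244), the catalytic core subunits of ATP synthase. The 7 nuclear complex IV genes had means of 461.1 to 889 with a median of 647, against a median of 3012 for the 3 mitochondrial ones. For complex I, 13 nuclear genes had a median of 194 and the 6 tested mitochondrial ones a median of 649, so that complex IV genes were the higher on both genomes.

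The mitochondrial genome gave between 1.34% and 1.85% of all counts. The controls had 1.62%, 1.61% and 1.34% (mean 1.52% ± 0.159, SD, n = 3), and the libraries at 400 ng/g had 1.85%, 1.55% and 1.74% (1.71% ± 0.155). At 2000 ng/g the shares were 1.39%, 1.47% and 1.39% (1.41% ± 0.0457), and at 10000 ng/g 1.65%, 1.60% and 1.81% (1.68% ± 0.112). Each exposed group overlapped the controls, and the groups that did not overlap were 2000 ng/g, below both 400 and 10000 ng/g. No order with dose was seen, as the lowest and the highest dose lay above the middle one. The share is a sum over the members and was not tested, and 3 libraries against 3 could not give an exact p below 0.1.

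Scaling changed the place of single libraries. The TMM factor was 1.11 for replicate 1 at 400 ng/g and 0.849 for replicate 2, the highest and the lowest of the 12. Relative to the TMM effective library size, an alternative added after these factors were seen, the 400 ng/g libraries stood at 1.67%, 1.82% and 1.78% and the 2000 ng/g libraries at 1.418%, 1.47% and 1.36%. On this scale too 400 ng/g lay above 2000 ng/g in every library and overlapped the controls, which had 1.70%, 1.59% and 1.32%. The group at 10000 ng/g had 1.59%, 1.53% and 1.78%, without overlap above 2000 ng/g.

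**Figure D2:**
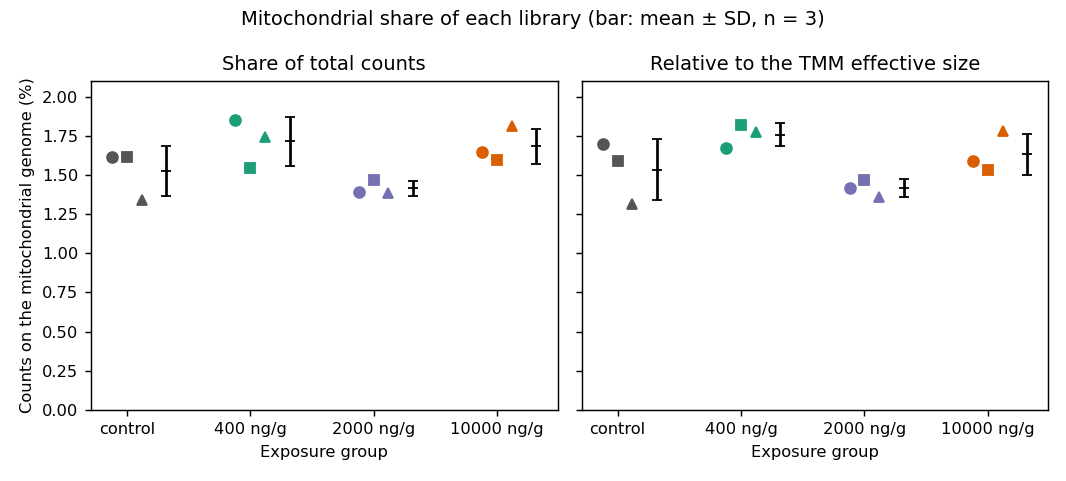
Percent of each library's counts on the mitochondrial genome, of total counts on the left and of the TMM effective library size on the right, by exposure group. Points are libraries, shaped by replicate, and the bar beside each group is the mean ± SD of 3. All libraries at 2000 ng/g lie below all at 400 and 10000 ng/g in both panels, and every exposed group overlaps the controls.

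Within the mitochondrial mRNA the balance between complexes was narrow. Complex IV genes held 56.8% to 60.02% of the protein-coding counts, complex I genes 17.6% to 20.4%, CYTB 11.99% to 14.0% and ATP6 9.02% to 10.2%. The ratio of complex I to complex IV counts was 0.341, 0.360 and 0.327 in the controls and 0.294, 0.333 and 0.298 at 10000 ng/g. It lay between 0.337 and 0.346 in all 6 libraries at 400 and 2000 ng/g. The top dose therefore had the lowest mean ratio, 0.308 ± 0.0215, below 400 and 2000 ng/g without overlap, but its replicate 2 lay inside the control range (0.343 ± 0.0166). This ratio was not tested.

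Set against the summed mitochondrial mRNA of its own library, which takes the overall share out, most genes varied little. Over 12 libraries the count of ATP6 relative to that sum varied 1.13-fold from lowest to highest, that of ND5 1.15-fold and that of COX3 1.16-fold. COX2 varied 1.37-fold, ND6 1.401-fold, ND2 1.45-fold and ND3 1.56-fold. The shorter rRNA varied 2.13-fold and the longer rRNA 5.93-fold, so the rRNA features were the most variable members by this measure. At 10000 ng/g COX1 lay above all controls, at log2 differences from the control mean of 0.058 to 0.140 against at most 0.013. ATP6, ND1 and ND2 lay below all controls there, at no more than -0.036, -0.085 and -0.089 against control minima of -0.027, -0.061 and -0.065. The other tested features overlapped the controls at that dose. COX1 was not particular to the top dose, since at 2000 ng/g it also lay above all controls, at 0.038 to 0.068. ND3 lay below all controls at 2000 ng/g, at no more than -0.067 against a control minimum of -0.033. These differences were not tested, and no background over all features is given on this scale.

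**Figure D3:**
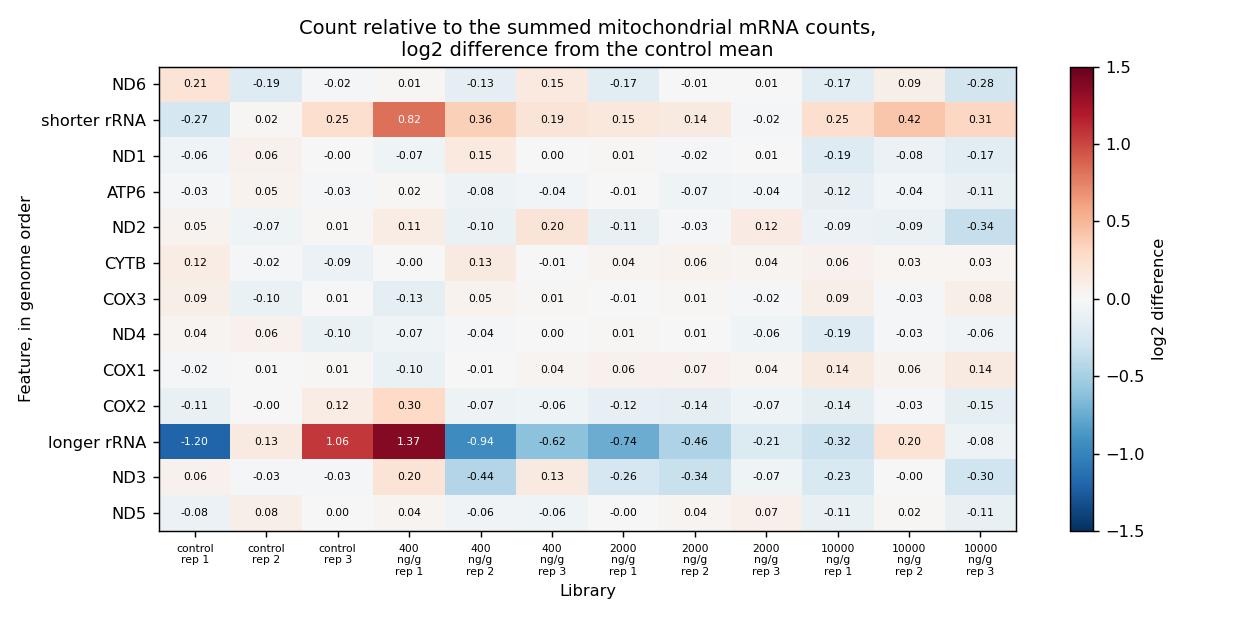
Count of each tested feature relative to the summed mitochondrial protein-coding counts of its library, as the log2 difference from the control mean, for 12 libraries (columns) and 13 features in genome order (rows). Most cells for the protein-coding genes lie near 0, while the longer rRNA runs from -1.20 in control replicate 1 to 1.37 in replicate 1 at 400 ng/g.

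The longer rRNA differed between replicates of 1 group as much as between groups. Its TMM-scaled CPM was 23.6, 55.4 and 87.2 in the controls, 136.8, 30.2 and 36.8 at 400 ng/g, 27.0, 33.9 and 37.4 at 2000 ng/g and 40.4, 55.8 and 53.7 at 10000 ng/g. The SD within groups was 0.78 on the log2 scale, against 0.096 to 0.20 for the other 12 features. Per length, the ratio of the longer to the shorter rRNA ran from 0.448 to 1.93, and both its lowest value (replicate 2) and one of its highest (1.60, replicate 1) came from 400 ng/g. Against control its log2 fold change was 0.30 ± 0.53 (SE) at 400 ng/g, -0.76 ± 0.53 at 2000 ng/g and -0.15 ± 0.53 at 10000 ng/g. Without replicate 1 at 400 ng/g the first of these became -0.72, and without control replicate 1 it became -0.04, so that single libraries set its sign.

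The shorter rRNA gave the smallest p of any mitochondrial feature against control. Its TMM-scaled CPM was 29.9, 34.1 and 33.0 in the controls and 62.3, 49.4 and 43.0 at 400 ng/g. It was 33.5, 34.2 and 28.3 at 2000 ng/g and 39.9, 43.3 and 46.6 at 10000 ng/g. All libraries at 400 and at 10000 ng/g lay above all controls, and those at 2000 ng/g overlapped them. At 400 ng/g the log2 fold change was 0.67 ± 0.14 (95% interval 0.38 to 0.97), just outside the threshold of 0.05 with an adjusted p of 0.0523 in edgeR's quasi-likelihood test with Benjamini-Hochberg adjustment over 16665 features. At 10000 ng/g it was 0.42 ± 0.14 (adjusted p = 0.144), and at 2000 ng/g -0.02 ± 0.14 (adjusted p = 0.993), by the same test.

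The call at 400 ng/g turned on settings. It passed with no filter on low counts (adjusted p = 0.0176, edgeR) and with DESeq2 (adjusted p = 0.001). It also passed when replicate 3 at 400 ng/g or replicate 3 at 2000 ng/g was left out of the edgeR fit (adjusted p = 0.0329 and 0.0296). These fits called many other features too: 3.74% of all with no filter, 8.89% with DESeq2 and 3.88% and 5.31% without those libraries, against 0% in the edgeR fit of all 12 libraries. Without replicate 1 at 400 ng/g, where both rRNAs were highest, the log2 fold change was 0.51 with an adjusted p of 0.0865 in the same edgeR test. A fit with the summed mitochondrial mRNA as library size gave a log2 fold change of 0.47 (adjusted p = 0.1555, edgeR's quasi-likelihood test). Relative to that sum, both doses overlapped the controls. The lowest library at 400 ng/g (0.1932) and at 10000 ng/g (0.2484) lay below the highest control (0.2492), as log2 differences from the control mean.

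Mitochondrial rRNA made up 0.0051% to 0.022% of all counts, whereas nuclear rRNA features made up 0.356% to 0.709%. The nuclear share was 0.677%, 0.585% and 0.709% in the controls, 0.471%, 0.687% and 0.556% at 400 ng/g and 0.494%, 0.479% and 0.630% at 10000 ng/g. At 2000 ng/g it was 0.356%, 0.371% and 0.398%, below every library of the other groups. The other groups overlapped each other, and the nuclear share was not tested. The part of residual rRNA after oligo(dT) selection in the mitochondrial rRNA values was not tested either. Replicate 1 at 400 ng/g had the highest mitochondrial rRNA share and the lowest nuclear one of its group.

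**Figure D4:**
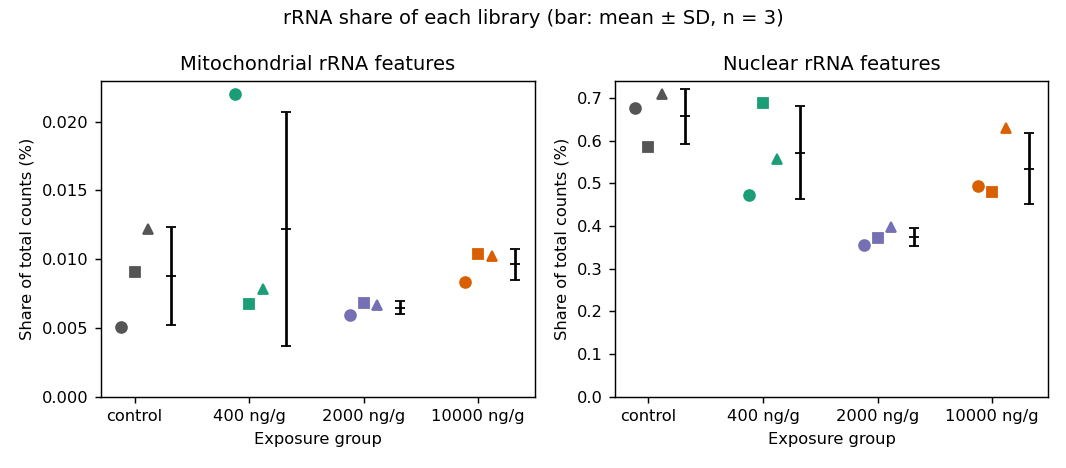
Percent of all counts on the 2 mitochondrial rRNA features (left) and on nuclear rRNA features (right) by exposure group, on linear axes of different scale. Points are libraries, shaped by replicate, and bars are mean ± SD of 3. The nuclear share is lowest at 2000 ng/g, and the mitochondrial share of replicate 1 at 400 ng/g, 0.022%, stands apart from its group.

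No protein-coding gene passed the threshold in any of the 6 comparisons among the 4 groups, and 0 of all 13 tested features did. With the lowest dose against control, 0 of 13 members were called, as were 0% of all features tested. With 2000 ng/g against control the background was likewise 0%, and with 10000 ng/g it was 0.252%. Between doses it was 0% for 2000 against 400 ng/g, 0.0960% for 10000 against 400 ng/g and 0.0480% for 10000 against 2000 ng/g. DESeq2 called 1 member, the shorter rRNA, at 400 ng/g, where it called 8.89% of all features, and none in the other comparisons.

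At 400 ng/g against control all 11 protein-coding genes had positive log2 fold changes, from 0.15 to 0.26 with a median of 0.17, beside a median of 0.05 over all features. An unadjusted p under 0.05 in the higher direction was reached by 3 of the 13 members, the shorter rRNA, ND2 and COX2, and by 6.77% of all features. The groups did not overlap, higher at 400 ng/g, for 4 members (COX2, ATP6, ND5 and the shorter rRNA) and for 8.19% of all features. Without control replicate 1 the median of the 11 genes was 0.29, and without control replicate 3 it was 0.077. Because all members come from the same transcripts and share 1 library scaling, their signs are not 11 independent observations.

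COX2, the subunit that takes electrons from cytochrome c, had a CPM of 2143, 2169 and 1939 in the controls and 2801, 2370 and 2324 at 400 ng/g. It was 1781, 1822 and 1769 at 2000 ng/g and 1962, 2036 and 2187 at 10000 ng/g. The libraries at 400 ng/g lay above and those at 2000 ng/g below all controls, while those at 10000 ng/g overlapped them. At 400 ng/g its log2 fold change was 0.26 ± 0.12 (adjusted p = 0.257, edgeR's quasi-likelihood test), and without replicate 1 of that group it was 0.17. ND2, a membrane subunit of complex I, had 265, 229 and 199 in the controls against 270.2, 256 and 307 at 400 ng/g, which overlapped, with a log2 fold change of 0.26 ± 0.12 (adjusted p = 0.254 in the same test) that became 0.17 without control replicate 3.

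At 2000 ng/g against control all 11 protein-coding genes had negative log2 fold changes, from -0.34 to -0.06 with a median of -0.12, beside -0.02 over all features. This median was -0.0195 without control replicate 1 and -0.22 without control replicate 3. ND3, a small complex I subunit, had the one unadjusted p under 0.05 in the lower direction, which 3.01% of all features had. Its CPM was 269, 235 and 195 in the controls and 179.9, 176 and 196 at 2000 ng/g, with a log2 fold change of -0.34 ± 0.15 (adjusted p = 0.855, edgeR's quasi-likelihood test). Without control replicate 1 it was -0.20, and without control replicate 3 it was -0.45. Those groups overlapped by 1 library, and ND3 was also the gene that varied most within groups among the protein-coding ones (SD 0.20 on the log2 scale). The one member whose groups did not overlap in the lower direction was COX2, against 5.47% of all features.

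At 10000 ng/g the protein-coding genes divided by sign, 4 positive and 7 negative, with a median of -0.01 that equalled the median over all features. Leaving out control replicate 1 gave 0.084 and leaving out control replicate 3 gave -0.12. COX1 had the highest log2 fold change, 0.20 ± 0.14, followed by COX3 at 0.13 ± 0.15 and CYTB at 0.12 ± 0.15. ND3 had the lowest, -0.10 ± 0.15. The shorter rRNA was the one member with an unadjusted p under 0.05 in the higher direction, beside 9.35% of all features, and the one whose groups did not overlap, beside 16.0%. Both counts stand for 1 of 13 members, near or below the background.

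**Figure D5:**
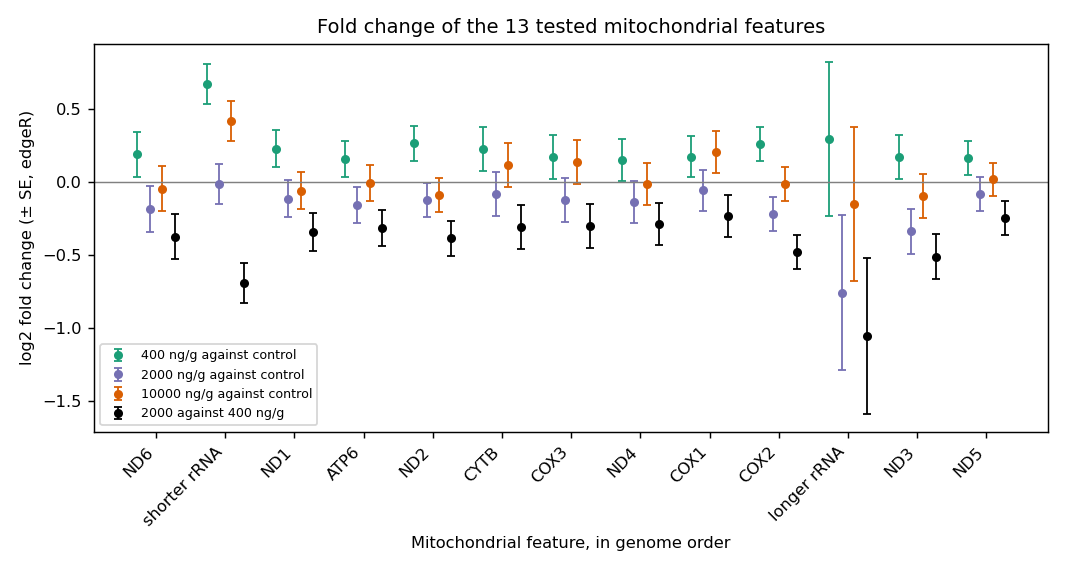
edgeR log2 fold change ± SE of the 13 tested mitochondrial features in genome order, for each dose against control and for 2000 against 400 ng/g. Protein-coding genes lie above 0 at 400 ng/g, below 0 at 2000 ng/g and on both sides at 10000 ng/g, and the comparisons against control share their control libraries.

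The 2 lower doses stood furthest apart from each other. From 400 to 2000 ng/g all 11 protein-coding genes had negative log2 fold changes, -0.51 to -0.23 with a median of -0.32, beside -0.04 over all features. The groups did not overlap for 12 of the 13 members, lower at 2000 ng/g, against 6.26% of all features, and the exception was the longer rRNA. An unadjusted p under 0.05 in the lower direction was reached by 7 members against 4.16% of all features. Members share transcripts and 1 library scaling, so in this and the other comparisons such counts are not of independent observations. None was called: the lowest adjusted p was 0.522 in edgeR's quasi-likelihood test with Benjamini-Hochberg adjustment.

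The 7 were the shorter rRNA, COX2, ATP6 and 4 complex I genes. The shorter rRNA had a log2 fold change of -0.69 ± 0.14, or -0.51 without replicate 1 at 400 ng/g. COX2 had -0.48 ± 0.12, ND3 -0.51 ± 0.15 and ND2 -0.39 ± 0.12. These genes were the ones already named against control. ND6 had a CPM of 20.6, 20.4 and 24.1 at 400 ng/g and 15.5, 17.9 and 16.7 at 2000 ng/g (-0.38 ± 0.15).

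ND1 had a CPM of 707, 900.2 and 792 at 400 ng/g and 638, 648 and 607 at 2000 ng/g (-0.34 ± 0.13). ATP6 had 1650, 1694 and 1697 at 400 ng/g and 1380, 1373 and 1291 at 2000 ng/g (-0.32 ± 0.12). Both genes kept all libraries of the lower dose above those of the middle dose. Taken against the summed mitochondrial mRNA as library size, the median of the 11 genes lies near 0 by construction. On that scale COX2 had a log2 fold change of -0.18, ND3 -0.21 and the shorter rRNA -0.39 from 400 to 2000 ng/g, and none was called.

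From 400 to 10000 ng/g, 10 of the 11 protein-coding genes had negative log2 fold changes, with a median of -0.17, beside -0.01 over all features. Unadjusted p under 0.05 in the lower direction were found for ND2 (-0.36 ± 0.12), COX2 (-0.28 ± 0.12) and ND1 (-0.29 ± 0.13), that is 3 of 13 members against 4.98% of all features. Without replicate 1 at 400 ng/g the value of COX2 was -0.18. The groups did not overlap, lower at 10000 ng/g, for 6 members (COX2, ATP6, ND5, ND1, ND2 and ND6) against 6.32%. COX1, COX3, CYTB, both rRNA features and the complex I genes ND3 and ND4 overlapped. Of the 6 members, 4 were complex I genes, as were 6 of the 11 tested protein-coding genes.

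From 2000 to 10000 ng/g all 11 protein-coding genes had positive log2 fold changes, with a median of 0.15, beside -0.005 over all features. The groups did not overlap, higher at 10000 ng/g, for 8 of the 13 members, among a background of 15.4%. The shorter rRNA was the one member with an unadjusted p under 0.05 in that direction (0.44 ± 0.14), beside 7.04% of all features. In a fit of these 2 groups alone both rRNA features passed, with an adjusted p of 0.0399 for the shorter in edgeR's quasi-likelihood test, and that fit called 5.60% of all features. A test over all 3 doses together gave an unadjusted p under 0.05 for the shorter rRNA, COX2, ND2 and ND3, 4 of 13 beside 17.6% of all features, and called none, beside 0.0840%.

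Among nuclear genes that serve the mitochondrial genome, those of the respiratory chain gave the only calls against control. Of 43 tested 2 were called, both lower at 10000 ng/g, beside 0.252% of all features, by edgeR's quasi-likelihood test with Benjamini-Hochberg adjustment. They were asb-1, a germ-line subunit of ATP synthase (CPM 140.3 ± 4.66 in the controls and 93.2 ± 4.22, log2 fold change -0.59 ± 0.095, adjusted p = 0.0399), and nduf-2.2, a complex I subunit gene (68.9 ± 3.97 and 46.0 ± 2.32, -0.58 ± 0.097, adjusted p = 0.0404). Neither call held in 9 of the 12 edgeR fits that left out 1 library, with adjusted p up to 0.215 and 0.224. The median of the 43 genes at 10000 ng/g was -0.03, close to that of the mitochondrial genes.

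Genes of mitochondrial ribosomal proteins, which build the ribosome around the 2 rRNAs, gave 0 calls among 70 in all comparisons. Their log2 fold changes were positive for 67 of 70 at 400 ng/g (median 0.17) and negative for 64 of 70 at 10000 ng/g (median -0.19), with 49 positive at 2000 ng/g (median 0.05). Among all features 57.0%, 45.6% and 48.7% were positive at 400, 2000 and 10000 ng/g, with medians of 0.05, -0.02 and -0.01. The mean level of the 70 genes relative to the control mean was -0.22 to -0.12 over the libraries at 10000 ng/g. This overlapped the controls, at -0.18 to 0.25 on the log2 scale. Over the libraries at 400 ng/g the mean level of these genes ran from -0.13 in replicate 1 to 0.49 in replicate 2. Replicate 1, highest in both mitochondrial rRNAs, was the lowest of its group in the ribosomal protein genes. This was not particular to them. The same library was also lowest of its group in nuclear respiratory chain (-0.27), body muscle (-0.40), intestine (-0.28) and hypodermis genes (-0.26). It was not the lowest in germ-line, oogenesis or neuron genes.

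For genes that copy, package and transcribe mitochondrial DNA or process its RNA, 14 of 16 listed genes were tested and 0 called. The 4 with the smallest p all missed the threshold in edgeR's quasi-likelihood test. At 10000 ng/g the log2 fold change of mma-1, a homologue of the human mRNA stability factor LRPPRC, was 0.29 ± 0.13 (adjusted p = 0.235). That of mtss-1, the mitochondrial single-stranded DNA binding protein, was -0.28 ± 0.16. At 400 ng/g that of tfbm-1, a transcription factor B homologue, was -0.31 ± 0.18 and that of twnk-1, the Twinkle helicase, 0.31 ± 0.18.

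The 12 tested mitochondrial tRNA synthetase genes and the 9 genes of the mitochondrial unfolded protein response had 0 calls each. Their medians at 400, 2000 and 10000 ng/g were 0.04, 0.01 and -0.05 for the synthetases and 0.21, 0.11 and -0.03 for the stress response.

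None of the tested markers of tissue and stage was called at any dose against control. Sperm msp genes, 29 of 29, had negative log2 fold changes at each dose, with medians of -1.84, -0.94 and -1.33 at 400, 2000 and 10000 ng/g on the log2 scale. Oogenesis genes (medians -0.89, -0.29 and -0.70 of 16), germ-line genes (-0.31, -0.20 and -0.37 of 13) and adult cuticle genes (-0.94, -0.54 and -1.16 of 7) also had negative medians at each dose. Their per-library means spread widely, from -2.39 to -0.98 for the msp genes at 400 ng/g and from -0.48 to 0.66 in the controls. Neuron genes had medians of 0.37, 0.15 and 0.34 of 12, body muscle genes 0.13, 0.18 and 0.00 of 12, intestine genes -0.05, 0.03 and 0.15 of 9 and hypodermis genes 0.05, 0.02 and -0.10 of 7. The part of stage or tissue composition in the mitochondrial values was not tested.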

How the data were processed

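The deposited table gave raw counts per gene for 12 libraries and FPKM values beside them. Per the submitters' processing notes the tools were HISAT2 2.2.1 and featureCounts 2.0.6, beside CASAVA and DESeq2 1.42.0. How strand, multi-mapping reads and overlaps were set is not given in the sources used here. The authors' FPKM equalled counts per length scaled by DESeq2 size factors rather than by total counts, as checked against the deposited counts.

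Counts were tested with edgeR 4.0.16 (R 4.3.3, limma 3.58.1) by the quasi-likelihood test, with TMM, filterByExpr, 1 mean per group over all 12 libraries and Benjamini-Hochberg adjustment over 16665 features at 0.05; DESeq2 1.42.0 was an alternative. SE is the log2 fold change over the square root of F. On simulated counts for 10000 ng/g against control (16445 features), 16.1% of 1.5-fold, 48.6% of 2-fold and 84.7% of 4-fold changes were recovered, with 5 false calls of 109. Gene names came from RefSeq by position. Members and lists were chosen with earlier results of these data known. Values are given in full for members with an unadjusted p under 0.05 or the highest or lowest levels, of each list for at most the 2 called genes with the smallest p in each direction, and for mitochondrial DNA maintenance genes for the 4 with the smallest p. Shares, ratios and list medians are descriptions without a test. No sequence was printed.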

Additional observations from a re-analysis of the deposited data

How the results depend on the processing

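The count of mitochondrial features called at 400 ng/g against control was 0 and became 1, the shorter rRNA, with no low-count filter, with DESeq2 and with the replicate block (adjusted p = 0.0444, edgeR, where 3.47% of all features were called), and ran from 0 to 1 when 1 library was left out. Equal replicate numbers are not stated to pair libraries. Of 18 correlations of deviations between them 5 were over 0.1, with a median of -0.096 and a range of -0.47 to 0.34, which does not settle pairing. The block otherwise ended the calls of asb-1 and nduf-2.2 (adjusted p = 0.0882 and 0.0824, edgeR). With only the 2 groups compared, 10000 against 2000 ng/g gave 2 calls.

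With the mitochondrial mRNA pool as library size the median of the protein-coding genes became -0.0092 for 2000 against 400 ng/g, -0.060 for 10000 against 400 and -0.051 for 10000 against 2000, by construction near 0, and the shorter rRNA at 2000 ng/g against control turned to 0.077. Leaving out 1 library moved the median for 2000 against 400 ng/g between -0.37 and -0.27, and the medians against control between 0.077 and 0.29 at 400 ng/g, between -0.22 and -0.0195 at 2000 ng/g and between -0.12 and 0.084 at 10000 ng/g. It moved the longer rRNA between -0.72 and 0.78 at 400 ng/g and between -0.48 and 0.34 at 10000 ng/g, and the shorter rRNA between -0.067 and 0.066 at 2000 ng/g.

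Per length, the mitochondrial share was 1.95%, 2.21%, 1.83% and 2.2004% in controls and at 400, 2000 and 10000 ng/g. Without the 100 highest nuclear genes it was 2.02%, 2.27%, 1.86% and 2.199%. The order of the group means was the same in both. Per length, the log2 ratio of rRNA to mRNA was -7.51 at 2000 and -7.20 at 10000 ng/g, and that of complex I to complex IV -1.53 at 400 ng/g. The cause of the other moves was not tested. With 3 libraries a group, 16.1% of simulated 1.5-fold changes were recovered at 10000 ng/g against control. Those changes were placed in features drawn at random from all tested, so the rate is not one for the mitochondrial members. The members' own changes were mostly smaller than 1.5-fold.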
